A study of Mus musculus with 24 samples.

Results

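The cytosolic ribosomal protein genes encode the protein parts of the small and large ribosomal subunits. They were chosen by name: protein-coding rows whose symbol starts with Rpl or Rps and a digit, together with Rplp0, Rplp1, Rplp2 and Rpsa, and without kinases named Rps6k, rows with -ps in the name, Rps19bp1 and Rps27l. The rule gave 85 of the 38215 genes, 33 of the small subunit and 52 of the large. Of these, 77 are the usual, broadly expressed genes (called core genes here) and 8 are copies with names of their own: Rpl3l, Rpl7l1, Rpl10l, Rpl22l1, Rpl36al, Rpl39l, Rps12l1 and Rps4y2, which is now called Rps4l. Rps3a is now called Rps3a1. The row named Rpl24 spans chr16:55966275-56008913 and covers both Rpl24 (chr16:55966275-55971435) and the neighbouring gene Zbtb11 (chr16:55973883-56008913) of GENCODE M21, which gives the identifier of the row to Zbtb11, so its values cannot be ascribed to Rpl24 alone. The rule itself uses no measured values, but it was chosen with earlier results of these data known. Rpl10l and Rpl3l were under the filter on low counts, so 83 of the 85 were tested.

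Each ribosome holds 1 copy of most of these proteins, and free ribosomal proteins are broken down, so cells make them in near-equal amounts. Their mRNAs start with a short run of pyrimidines, the TOP motif, through which mTORC1 and the RNA-binding protein Larp1 set how well they are translated. Haematopoietic stem cells are known for a low rate of protein synthesis, and inherited loss of 1 copy of certain ribosomal protein genes causes Diamond-Blackfan anaemia.

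The libraries came from long-term haematopoietic stem cells (LT-HSCs; lineage-, Sca1+, cKit+, CD150+, CD48-) of 12 mice. Each mouse was a lethally irradiated C57BL/6J recipient (CD45.1+/CD45.2+) that received equal parts of marrow from a congenic Jak2+/+ donor (Ptprca, CD45.1+; both donor genotypes are labelled C57Bl/6N) and a Jak2V617F/+ Tg(E2A-cre) donor (CD45.2+). Jak2V617F is an activating mutation of the kinase Jak2 that drives myeloproliferative neoplasms, and pegIFN is pegylated interferon alpha. For 4 weeks, 6 mice were injected weekly with vehicle (albumin in saline) and 6 with 600 ng pegIFN, 5 doses in all, and cells were sorted 48 hours after the last dose. Wild-type and mutant cells were sorted from every mouse, giving 24 libraries in 4 groups of 6. The wild-type cells therefore shared their host, the irradiation and the mutant neighbours with the mutant cells, and no group came from an unmixed marrow. The labels give no ages and do not say in which cells the Cre acts.

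Library totals ran from 24.6 to 39.7 M counts. The mutation itself cannot be seen in gene counts. Xist, the RNA of the inactive X chromosome, was at 1801 to 3310 CPM (counts scaled to a common library size, TMM-normalised) in 11 wild-type libraries and at 3.00 to 110 CPM in 11 mutant libraries. It was at 600 CPM in wild-type vehicle replicate 4 and at 654 CPM in mutant pegIFN replicate 1, so these 2 libraries stood apart from their groups; whether they hold cells of both donors or carry the wrong label was not tested. The labels used here do not give donor sex, and since Xist went with genotype, differences between genotypes cannot be told apart from differences between donors in sex. The same holds for the Tg(E2A-cre) transgene of the mutant donor and the congenic Ptprca background of the wild-type donor. Among the 9 LT-HSC marker genes none was at 0. Their summed level ran from 1582 to 2286 CPM in wild-type vehicle, 969 to 1348 in wild-type pegIFN, 1216 to 1666 in mutant vehicle and 842 to 1429 in mutant pegIFN libraries. All 8 interferon-stimulated marker genes rose in both genotypes, with median log2 fold changes of 5.01 and 4.98.

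The start-site sequences of 10 genes described below are shown for the length of the pyrimidine run, which varies within the group. RefSeq windows on GRCm38.p6 were found for 61 of the 85 genes. Below are 60 bases before and 20 bases after the annotated start of 7 genes that rose with pegIFN in both genotypes, and of the 3 genes that fell in wild-type cells. Capitals mark the longest run of C and T between 10 bases before and 20 bases after the start.
Rpl36al (chr12:69184048-69184127, minus strand): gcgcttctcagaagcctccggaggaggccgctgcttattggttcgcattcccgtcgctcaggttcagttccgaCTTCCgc
Rpl27 (chr11:101442185-101442264, plus strand): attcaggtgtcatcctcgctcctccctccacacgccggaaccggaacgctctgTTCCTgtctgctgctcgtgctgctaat
Rpl41 (chr10:128549149-128549228, minus strand): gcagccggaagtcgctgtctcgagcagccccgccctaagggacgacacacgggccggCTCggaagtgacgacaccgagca
Rps2 (chr17:24720003-24720082, plus strand): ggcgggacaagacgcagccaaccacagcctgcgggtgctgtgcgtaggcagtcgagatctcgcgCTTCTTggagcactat
Rpl18 (chr7:45718011-45718090, plus strand): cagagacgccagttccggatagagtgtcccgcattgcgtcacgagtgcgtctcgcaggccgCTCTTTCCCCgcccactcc
Rpl7a (chr2:26910747-26910826, plus strand): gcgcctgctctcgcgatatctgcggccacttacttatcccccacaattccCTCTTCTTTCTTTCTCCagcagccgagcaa
Rpl38 (chr11:114668520-114668599, plus strand): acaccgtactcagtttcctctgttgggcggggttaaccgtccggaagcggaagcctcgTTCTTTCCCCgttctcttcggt
Rpl22l1 (chr3:28805448-28805527, plus strand): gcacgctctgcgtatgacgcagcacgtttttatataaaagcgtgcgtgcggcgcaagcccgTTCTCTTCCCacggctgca
Rps3a (chr3:86142649-86142728, minus strand): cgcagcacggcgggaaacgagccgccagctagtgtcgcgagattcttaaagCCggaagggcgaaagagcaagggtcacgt
Rps4x (chrX:102189372-102189451, minus strand): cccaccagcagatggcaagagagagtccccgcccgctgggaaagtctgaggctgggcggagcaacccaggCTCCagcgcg

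A run of at least 7 pyrimidines in that stretch was present in 26 of 57 core genes with a window (45.6%) and in 1806 of 10340 other tested protein-coding genes (17.5%). Rpl7a had the run of 17 shown above, Rpl18, Rpl38 and Rpl22l1 had runs of 10, and Rpl36al, Rpl27 and Rpl41 had at most 5. The annotated start may lie some bases from the start in use, so a missing run says only that these letters were not there. The ETS-type motif CCGGAAG was present on either strand of the 300-base windows (250 before and 50 after the start) of 40.4% of core genes and 18.2% of the others. TATAA was in 26.3% and 13.2%, GGGCGG in 59.6% and 63.6%, CACGTG in 8.77% and 10.1%, and AAGATGGC in 7.02% and 4.58%. The interferon-stimulated response element GAAANNGAAA was in 7 of 57 core windows (12.3%) and in 3.19% of the others. The 7 genes were Rpl4, Rpl5, Rpl27a, Rpl38, Rps7, Rps19 and Rps23. No test was made of these shares, and a match is not a bound site.

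The genes were among the most abundant in these cells: 30 of the 85 were within the top 100 genes by count, 68 were within the top 500, and 79 had a mean above 100 CPM. They lay on 19 chromosomes. In the reference annotation 30 of the 77 core genes (39%) held a small nucleolar RNA gene within their body, against 217 of 13371 tested protein-coding genes (1.62%). The median annotated transcript length was 777.5 bases for the 76 core genes other than Rpl24 and 2788 for all tested protein-coding genes. Per kilobase of transcript, the highest mean levels in wild-type vehicle libraries were those of Rplp1 (1793 CPM per kilobase), Rps9 (1688), Rpl32 (1667), Rps3a (1624), Rps4x (1614) and Rps14 (1604). The copies were lower: Rpl36al was at 255 CPM per kilobase, Rpl22l1 at 163, Rpl7l1 at 54.1, Rps4y2 at 5.91, Rps12l1 at 1.10 and Rpl39l at 0.118. Rpl3l, the muscle form of Rpl3, ran from 0 to 0.383 CPM over all libraries. Rpl10l, the testis form of Rpl10, was above 0 in 1 library, wild-type pegIFN replicate 4, at 0.0344 CPM, where 3 counts in the shallowest library correspond to 0.122 CPM.

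These genes have many near-identical copies in the genome, and RSEM shares ambiguous reads out between them. Every value was fractional in all 24 libraries for 56 of the 85 genes, and 54 had at least 1 row with -ps in its name. For Rpl27 the -ps rows held 50.3% as many counts as the gene itself, for Rpl38 54.9%, and for Rpl31 174%, so levels of such genes are uncertain. Rpl36al (16.7% of values fractional) and Rpl8 (20.8%) were among the least affected.

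As a share of all counts, the 85 genes took 5.72% ± 0.27 (SD, n = 6) of wild-type vehicle libraries, with single libraries from 5.47 to 6.15%. The share was 5.91% ± 0.25 (SD, n = 6; 5.66 to 6.3%) in wild-type pegIFN, 6.01% ± 0.17 (SD, n = 6; 5.77 to 6.23%) in mutant vehicle and 6.3% ± 0.41 (SD, n = 6; 5.53 to 6.65%) in mutant pegIFN libraries. The 4 groups overlapped. Within mice, the mutant library had the larger share in 11 of 12. The exception was pegIFN mouse 40 (replicate 3 of both pegIFN groups), with 5.53% in mutant and 5.66% in wild-type cells. In a bulk library, fewer cells of a type and less RNA per cell cannot be told apart.

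**Figure D1:**
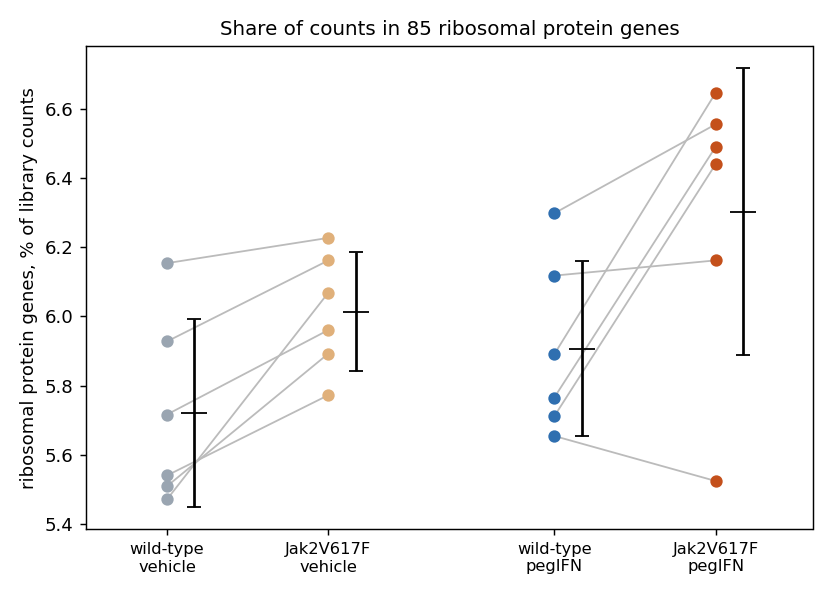
Share of each library's counts in the 85 ribosomal protein genes (vertical axis, percent; the axis does not start at 0) by genotype and treatment. Points are libraries, grey lines join both libraries of a mouse, and black marks give the mean and SD of 6 libraries; 11 of the 12 lines rise from wild-type to Jak2V617F.

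Within groups the core genes moved as a block. After removal of group means, the median correlation between any pair of the 77 core genes over 24 libraries was 0.69, beside 0.12 for 583 other genes with a mean log2 CPM of at least 8. These libraries share depth and scaling, and the values are a description. Library names also end in an S number that recurs within every group, and the labels do not say what it stands for. If libraries were processed in sets, that cannot be told apart here from effects of the mouse, and its part in these correlations was not tested. Rps12 and Rpl35 followed the mean of the other core genes most closely (0.97 and 0.95), and Rps27 and Rps14 least (0.42 and 0.48). The mean deviation of the core genes in a mouse's wild-type library and in its mutant library had a Pearson correlation of 0.60 (Spearman 0.54) over 12 mice. It was 0.55 without the 2 mice farthest from the median of the wild-type values, and 0.45 without pegIFN mouse 40. In mutant pegIFN replicate 3, 75 of the 77 core genes were at their lowest of the 6 libraries, and in wild-type pegIFN replicate 3, from the same mouse, 43 of 77 were.

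**Figure D2:**
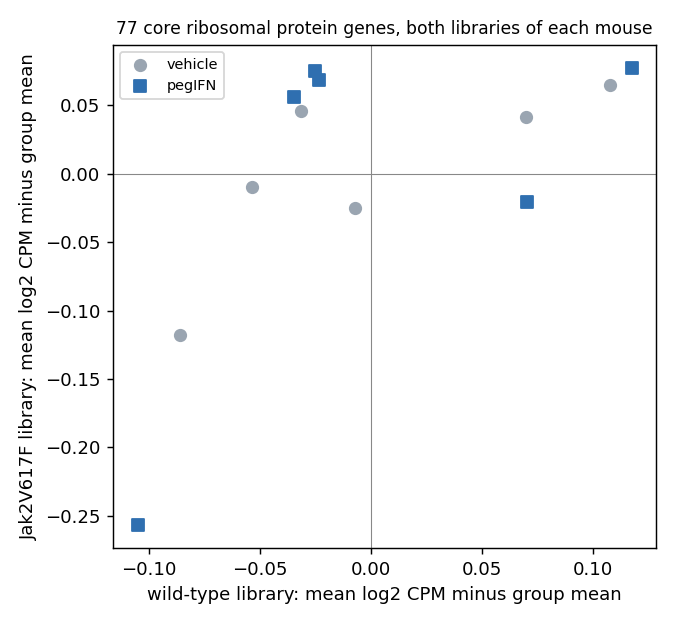
Mean log2 CPM of the 77 core genes minus its group mean, in the wild-type library (horizontal axis) and the Jak2V617F library (vertical axis) of each of 12 mice. Circles are vehicle mice and squares pegIFN mice; the lowest square is pegIFN mouse 40, and the correlation over mice was 0.60.

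Treatment was compared within wild-type cells first. After pegIFN, 40 of the 83 tested genes rose and 3 fell (edgeR quasi-likelihood test, Benjamini-Hochberg adjusted p under 0.05). Over all 15879 genes tested, 28.2% rose and 28.7% fell. The median log2 fold change of the ribosomal protein genes was 0.13 beside -0.01 for all genes, and 68 of 83 had a positive value. Most changes were small: core genes lay between -0.19 and 0.46. The direction of many genes rests on the scaling. With library totals in place of TMM factors the median over all genes moved to -0.11, and 22 ribosomal protein genes rose and 6 fell. Of all 15879 genes 3326 rose and 5578 fell with that scaling. With upper-quartile factors 24 ribosomal protein genes rose and 6 fell, beside 3495 and 5400 of all genes. A scaling moves all genes alike, so it leaves the distance of 0.15 between both medians as it is. Called under all 5 scalings tried were 22 increases (among them Rpl7a, Rpl8, Rpl18, Rpl27, Rpl29, Rpl36al, Rpl38, Rpl41, Rplp0 and Rps2) and the 3 decreases. Without the row named Rpl24, 39 of 82 genes rose in each genotype.

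Treatment of the mutant cells gave 40 increases and no decrease, where 21.7% of all genes rose and 22.3% fell. The median was 0.16 beside -0.01 for all genes, with 77 of 83 positive. Of the 40 genes, 36 also rose in wild-type cells, which is 90.0% of each list. The libraries of the 2 comparisons are different, but the mice are the same. The overlap was not counted over all genes, so it cannot be read as particular to ribosomal protein genes. With library totals 17 rose and 2 fell (Rps3a and Rps4x), beside 2291 and 4572 of all genes. The median over all genes moved to -0.10. Called under all 5 scalings were 17 increases, 14 of them of the large subunit. Without mutant pegIFN replicate 3, the library lowest for nearly all core genes, 56 genes were called, all higher. Of all genes 3631 then rose and 3792 fell. The fewest without a single library, 29, came without mutant vehicle replicate 4, where 3000 of all genes rose and 3151 fell. Leaving out the 2 libraries apart on Xist gave 36 calls in wild-type and 35 in mutant cells. Of all genes 4211 then rose and 4249 fell in wild-type, and 3322 and 3404 in mutant cells.

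**Figure D3:**
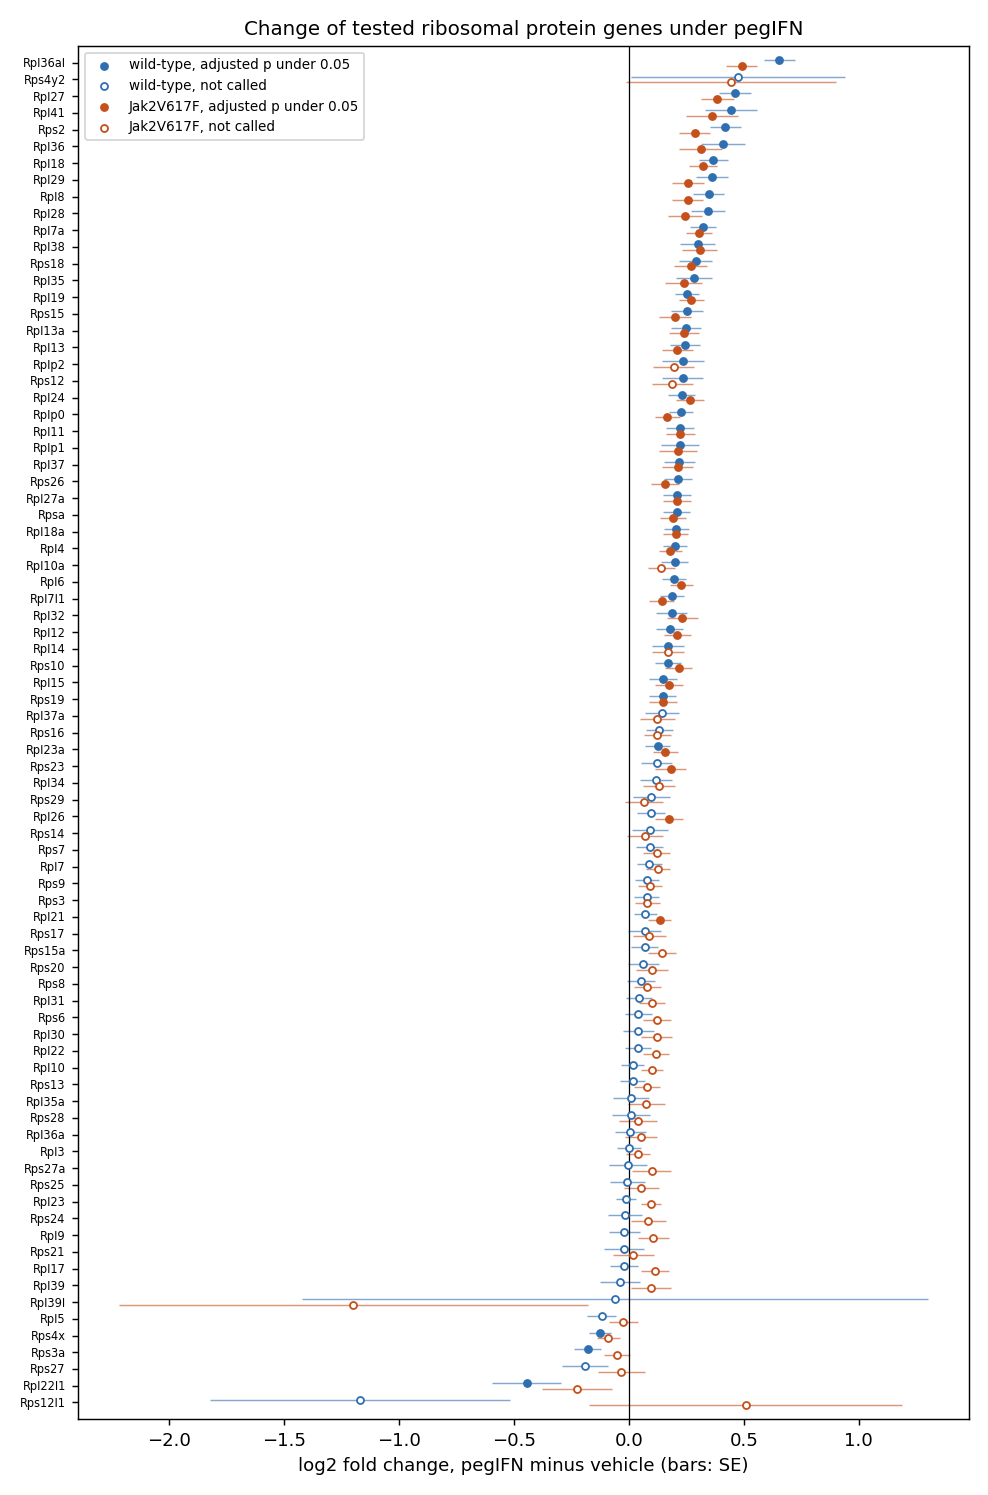
Log2 fold change, pegIFN minus vehicle (horizontal axis, bars are the SE), of the tested ribosomal protein genes drawn, in wild-type (blue) and Jak2V617F (orange) cells, sorted by the wild-type value. Filled points have an adjusted p under 0.05; the 3 filled points left of 0 are wild-type values of Rpl22l1, Rps3a and Rps4x, no Jak2V617F point left of 0 is filled, and the copies with wide bars are those with few counts.

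By subunit, 31 of 50 tested large subunit genes rose and 1 fell in wild-type cells (median 0.19), against 9 that rose and 2 that fell of 33 small subunit genes (median 0.08). In mutant cells 30 large subunit genes (median 0.18) and 10 small subunit genes (median 0.12) rose. Over all genes tested 28.2% rose in wild-type and 21.7% in mutant cells, and the small subunit count in wild-type cells was close to that share. The difference between subunits was not tested. Of the genes with a run of at least 7 pyrimidines at the start, 18 of 26 rose in wild-type and 14 of 26 in mutant cells, and of those without, 12 of 31 and 14 of 31. Host genes of small nucleolar RNAs gave 15 increases of 30 in each genotype.

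Rpl36al, an autosomal copy of the X-linked large subunit gene Rpl36a (ENSMUSG00000049751, chr12:69182731-69184083), had the largest called increase in both genotypes. It ran from 118 to 145 CPM (median 136) in wild-type vehicle and from 196 to 230 CPM (median 211) in wild-type pegIFN libraries. In mutant cells it ran from 154 to 192 CPM (median 173) with vehicle and from 200 to 263 CPM (median 251) with pegIFN. Treated and untreated libraries did not overlap in either genotype. The log2 fold change was 0.66 ± 0.07 (SE, adjusted p = 2.7e-08) in wild-type and 0.49 ± 0.07 (adjusted p = 4.3e-06) in mutant cells. Its X-linked parent Rpl36a stayed at medians of 388, 378, 413 and 427 CPM in the same 4 groups, with values of 0.01 and 0.05 that were not called.

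Rpl27, a large subunit gene mutated in some Diamond-Blackfan families, ran from 236 to 308 CPM (median 280) in wild-type vehicle and from 356 to 401 (median 373) in wild-type pegIFN libraries. The ranges did not overlap, and the log2 fold change was 0.46 ± 0.07 (adjusted p = 7e-06). In mutant cells it went from 297 to 363 CPM (median 344) with vehicle to 350 to 475 (median 454) with pegIFN, a change of 0.39 ± 0.07 (adjusted p = 0.00013). Only pegIFN replicate 3 reached into the vehicle range there.

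Rpl41 encodes the shortest ribosomal protein. It ran from 419 to 720 CPM (median 523) in wild-type vehicle and from 626 to 843 (median 708) in wild-type pegIFN libraries, which overlapped. The log2 fold change was 0.45 ± 0.11 (adjusted p = 0.0019), and in mutant cells, with medians of 677 and 888 CPM, it was 0.36 ± 0.11 (adjusted p = 0.013).

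Rps2, of the small subunit, ran from 926 to 1218 CPM in wild-type vehicle and from 1304 to 1516 in wild-type pegIFN libraries, with no overlap (log2 0.42 ± 0.07, adjusted p = 1.3e-05). In mutant cells the ranges, 1111 to 1257 and 1216 to 1624 CPM, touched (0.29 ± 0.07, adjusted p = 0.0015). It was the small subunit gene with the largest called increase in both genotypes.

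Of the other large subunit genes, Rpl18 changed by 0.37 ± 0.06 in wild-type (adjusted p = 1.8e-05) and 0.32 ± 0.06 in mutant cells (adjusted p = 0.00018). Rpl7a, whose windowed start carries the longest pyrimidine run shown, changed by 0.32 ± 0.06 (adjusted p = 3.1e-05) and 0.31 ± 0.06 (adjusted p = 0.00013), with no overlap between treated and untreated libraries in either genotype. Rpl36 changed by 0.41 ± 0.09 and 0.31 ± 0.09 (adjusted p = 0.00065 and 0.009). In all, 13 genes were higher with no overlap between treatments in wild-type cells, where 15.1% of all genes tested were, and 2, Rpl36al and Rpl7a, in mutant cells, where 9.81% were.

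The stalk proteins Rplp0, Rplp1 and Rplp2, which recruit the translation factors that hydrolyse GTP, all rose in wild-type cells, by 0.23, 0.22 and 0.24. In mutant cells Rplp0 and Rplp1 rose by 0.17 and 0.21, and Rplp2 had a value of 0.20 that was not called (adjusted p = 0.079). Rplp0 ran from 2050 to 2459 CPM with vehicle and from 2387 to 2719 with pegIFN in wild-type cells, and the highest vehicle library, replicate 1, lay within the pegIFN range. Rpsa, also known as a laminin receptor, rose by 0.21 ± 0.06 and 0.19 ± 0.06. Of these calls only that of Rplp0 in wild-type cells was made under all 5 scalings. With library totals Rplp1 and Rplp2 had values of 0.12 and 0.14 in wild-type cells (adjusted p = 0.17 each), Rplp0 and Rplp1 of 0.08 and 0.12 in mutant cells (adjusted p = 0.19 and 0.2), and Rpsa of 0.11 and 0.10 (adjusted p = 0.066 and 0.1).

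Among the 19 genes linked to Diamond-Blackfan anaemia 8 rose in wild-type and 9 in mutant cells, beside 28.2% and 21.7% of all genes, and none fell with TMM factors. Rps19, the gene most often mutated, rose by 0.15 ± 0.06 in each (adjusted p = 0.039 and 0.047). Rps26 rose by 0.21 ± 0.06 and 0.16 ± 0.06. With library totals neither was called: Rps19 had values of 0.05 and 0.06 (adjusted p = 0.45 and 0.39), and Rps26 of 0.12 and 0.07 (adjusted p = 0.057 and 0.28). Rpl5 and Rpl11, which together with 5S rRNA can bind Mdm2 and so stabilise p53 when assembly fails, were measured separately. Rpl11 rose by 0.22 ± 0.06 in both genotypes, and with library totals its wild-type value of 0.13 was not called (adjusted p = 0.051). Rpl5 had values of -0.12 and -0.02 that were not called. Rps27 (-0.19 and -0.03) and Rps14 (0.09 and 0.07), whose loss underlies the anaemia of the 5q- syndrome, were not called. With library totals Rpl5 (-0.22, adjusted p = 0.0031) and Rps27 (-0.29, adjusted p = 0.015) were called lower in wild-type cells.

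Several genes are known for roles beyond the ribosome. Rpl13a, which leaves the ribosome to silence inflammatory mRNAs in interferon-gamma-treated myeloid cells, rose by 0.25 ± 0.07 (adjusted p = 0.0025) and 0.24 ± 0.07 (adjusted p = 0.005). Rpl38, needed for translation of Hox mRNAs in the embryo, rose by 0.30 ± 0.08 and 0.31 ± 0.08. Rpl10a rose in wild-type cells (0.20 ± 0.06, adjusted p = 0.0049) and had a value of 0.14 in mutant cells that missed the threshold; with library totals the wild-type value was 0.10 (adjusted p = 0.1). Rps6, the substrate of the S6 kinases, had values of 0.04 and 0.12, and Rps27a, made as a fusion with ubiquitin, of -0.0038 and 0.10; neither was called. Rpl10 (0.02 and 0.10), Rpl3 (0.00 and 0.04), Rpl7 (0.09 and 0.13), Rpl22 (0.04 and 0.12) and Rps25 (-0.01 and 0.05) were not called either.

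The 3 genes that fell in wild-type cells were Rpl22l1, Rps3a and Rps4x. Rpl22l1, the copy of Rpl22 that also acts in early blood development, ran from 70.5 to 119 CPM (median 89.6) with vehicle and from 48.8 to 97.3 CPM (median 62.98) with pegIFN. Both groups overlapped, with pegIFN replicates 5 (72.6 CPM) and 6 within the vehicle range, and the change was -0.45 ± 0.15 (adjusted p = 0.016). In mutant cells the medians were 101 and 86.6 CPM (-0.22 ± 0.15, adjusted p = 0.24). Rps3a went from a median of 1597 to 1397 CPM in wild-type cells (-0.18 ± 0.06, adjusted p = 0.011) and from 1646 to 1561 in mutant cells (-0.05 ± 0.06, adjusted p = 0.5). Rps4x, on the X chromosome, went from 1585 to 1445 CPM (-0.12 ± 0.05, adjusted p = 0.032) and from 1616 to 1527 (-0.09 ± 0.05, adjusted p = 0.14). None of the 4 X-linked genes (Rpl10, Rpl36a, Rpl39 and Rps4x) rose in either genotype.

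**Figure D4:**
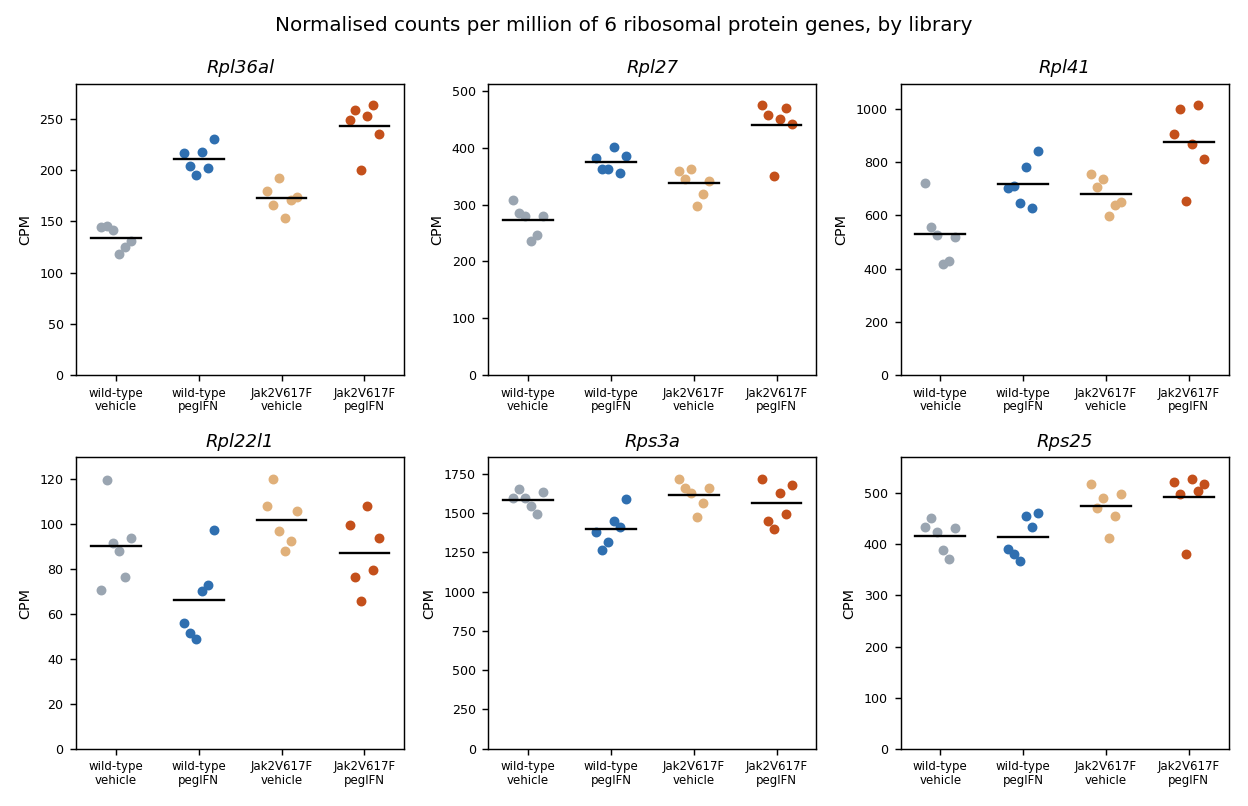
CPM (vertical axes, from 0) of 6 ribosomal protein genes in every library of the 4 groups; points are libraries and lines are group means of 6. Rpl36al, Rpl27 and Rpl41 are higher with pegIFN in both genotypes, Rpl22l1 and Rps3a are lower in wild-type cells, and Rps25 is higher in Jak2V617F than in wild-type cells under pegIFN, where 1 mutant library (replicate 3) is low.

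The remaining copies gave little. Rpl7l1, which acts in ribosome assembly, rose by 0.19 ± 0.05 and 0.14 ± 0.05 (adjusted p = 0.0045 and 0.035), and by library totals had 0.09 and 0.05 (adjusted p = 0.13 and 0.4). Rps4y2 (2.24 to 34.8 CPM over all libraries), Rpl39l (0 to 1.64) and Rps12l1 (0 to 0.760) were not called in any comparison without a mouse block. Rpl39l was higher in mutant than in wild-type cells under vehicle with the block (adjusted p = 0.0049), at medians of 0.406 and 0.0154 CPM. That call rests on few counts. The vehicle libraries overlapped, at 0 to 1.64 CPM in mutant and 0 to 0.428 CPM in wild-type cells, and mutant replicates 1 (1.64) and 3 (1.12) were highest. Of the 84 tested rows with -ps names 23 rose in wild-type and 19 in mutant cells and none fell. Over all genes tested 28.2% and 21.7% rose, close to the shares of these rows, and 28.7% and 22.3% fell. Of the 6 core genes with at most 30% fractional values 3 rose and none fell in each genotype.

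Does the response to pegIFN differ between genotypes? No gene passed the edgeR test of that difference, the interaction (0% of 15879 genes). None of the 83 ribosomal protein genes had an unadjusted p under 0.05 there in edgeR, where 1338 of 15879 genes did. DESeq2 called none of the 83, and over all genes 11 higher and 35 lower. The differences of the core genes lay between -0.13 and 0.16 on the log2 scale, with a median SE of 0.09 over the members, so differences of that order were not detectable. With the mouse as a block, 1.28% of all genes were higher and 2.05% lower in this test. No ribosomal protein gene was called, and 4 of the 83 had an unadjusted p under 0.05, beside 3095 of 15879 genes.

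Genotype was compared within each treatment. In vehicle-treated mice 4 of 83 genes were higher in mutant than in wild-type cells and none lower, where 8.48% of all genes were higher and 4.23% lower. Under pegIFN 6 were higher and none lower, where 4.16% of all genes were higher and 4.43% lower. The medians were 0.12 and 0.13, beside -0.01 and 0.01 for all genes, and 77 and 83 of the 83 values were positive. Both cell types came from the same mice, and with the mouse as a block 35 genes were higher and none lower under vehicle (17.5% and 13.6% of all genes), and 39 were higher and none lower under pegIFN (13.3% and 11.3% of all genes). Of the 35, 11 were of the small and 24 of the large subunit, and of the 39, 14 and 25. With the block and library totals 23 and 35 genes were called, all higher. Of all genes 2371 were then higher and 2573 lower under vehicle, and 1826 and 2035 under pegIFN.

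The counts without the block hung on single libraries. Under vehicle they ran from 2 to 10 when 1 library was left out, and the highest came without mutant vehicle replicate 4. In that fit 1757 of all genes were higher and 970 lower. Under pegIFN the member counts ran from 0 to 41. Without mutant pegIFN replicate 3, 41 were called, beside 1079 higher and 998 lower of all genes. Without both libraries of its mouse 22 were called, beside 694 and 710 of all genes. Without the 2 libraries apart on Xist, 2 and 0 were called, and with no filter on low counts 3 and 0. Leaving out those libraries gave 700 higher and 300 lower of all genes under vehicle, and 240 and 417 under pegIFN. No filter gave 1154 and 437, and 364 and 609. With the block, 28 and 23 were called without the 2 mice of the libraries apart on Xist, all higher in the mutant. Without mouse 40, 55 were called under pegIFN, also all higher. Of all genes these fits gave 2344 higher and 1662 lower, 1369 and 1221, and 2004 and 1776.

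Rpl36al was higher in the mutant under vehicle, at 0.37 ± 0.07 (adjusted p = 0.0025), with no overlap between 118 to 145 CPM in wild-type and 154 to 192 CPM in mutant libraries, and higher in the mutant in 6 of 6 mice. Under pegIFN its value was 0.20 ± 0.07, also 6 of 6 mice, and was called with the mouse block (adjusted p = 0.0066) and with library totals (adjusted p = 0.047). Rpl41 (0.37 ± 0.11, adjusted p = 0.037), Rpl27 (0.31 ± 0.07, adjusted p = 0.0074) and Rpl7a (0.18 ± 0.06, adjusted p = 0.04) completed the 4 under vehicle; the call of Rpl7a was lost under another scaling. Rpl27 was the gene called in both genotype comparisons, with 0.23 ± 0.07 under pegIFN (adjusted p = 0.041).

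Also called under pegIFN were Rps25 (0.25 ± 0.08), Rpl9 (0.22 ± 0.07), Rpl31 (0.21 ± 0.06) and Rpl17 (0.20 ± 0.06). Rpl27, Rpl31 and Rps25 were called there under all 5 scalings. Rps25, a small subunit protein used by certain viral internal ribosome entry sites, ran from 367 to 461 CPM in wild-type and from 382 to 528 CPM in mutant pegIFN libraries. It was higher in the mutant in 6 of 6 mice (adjusted p = 0.045). For Rps25 and Rpl31 the groups overlapped through mutant replicate 3 alone, and for Rpl9 and Rpl17 through further libraries too. Rpl22l1 had a genotype difference of 0.40 ± 0.15 under pegIFN (adjusted p = 0.1, and 0.011 with the block), with the mutant higher in 5 of 6 mice.

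**Figure D5:**
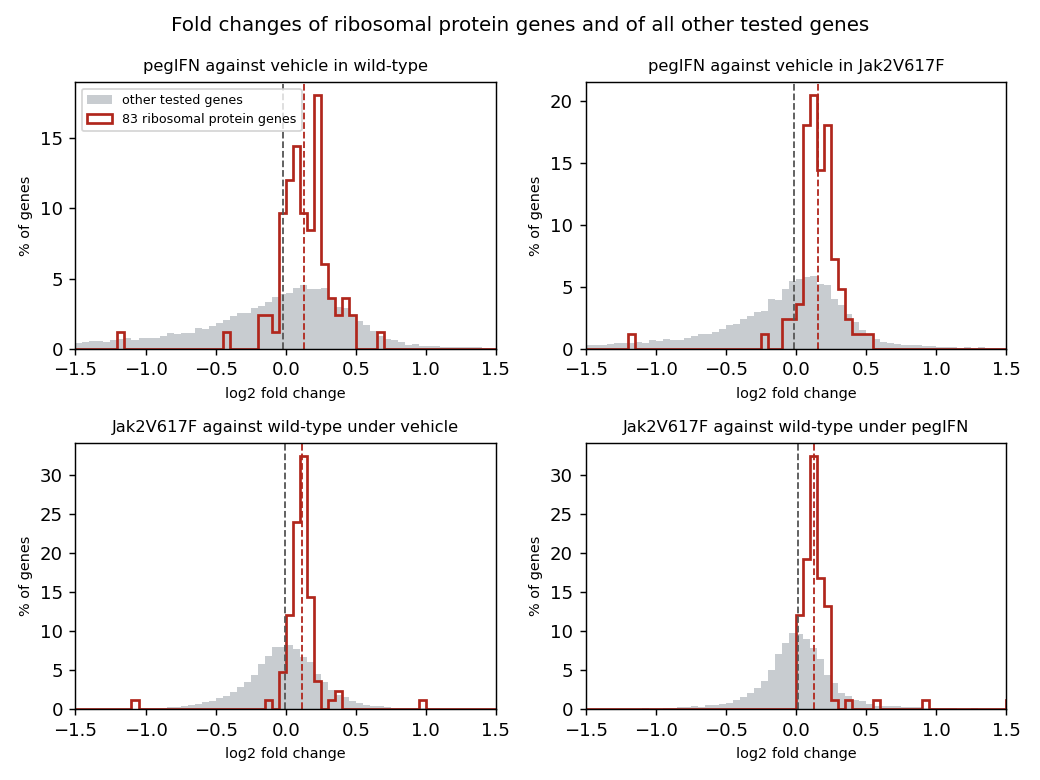
Distribution of log2 fold changes in the 4 comparisons (horizontal axes) as percent of genes (vertical axes), for the 83 ribosomal protein genes (red outline) and all other tested genes (grey; genes beyond the axes, Rpl39l among them, are not shown), with dashed lines at the medians. The red medians, 0.13, 0.16, 0.12 and 0.13, lie to the right of the grey ones in each panel.

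Transcript length moved with the genotype differences. Across 15604 genes the rank correlation of length with the fold change was -0.23 under vehicle and -0.27 under pegIFN, and across the 76 core genes other than Rpl24 it was -0.35 and -0.25. For the treatment comparisons it was -0.15 and -0.21 over all genes and -0.02 and 0.03 over those core genes. Genes are not independent replicates, and the part of length in these results was not tested.

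Markers of cell state moved too. In both genotypes 7 of 9 LT-HSC markers fell with pegIFN and 1, Ly6a, rose. Of 9 erythroid genes 4 rose and 4 fell with pegIFN in each genotype. Their values lay between -5.12 and 3.04 in wild-type and between -4.90 and 1.88 in mutant cells. Of all genes tested 28.2% rose and 28.7% fell in wild-type cells, and 21.7% and 22.3% in mutant cells. Cd48, which the sort gates against, rose by 1.76 and 1.42 from medians of 7.30 and 12.7 CPM. Of 6 G2/M genes 5 rose with pegIFN in wild-type and none in mutant cells, and under vehicle all 6 were higher in the mutant. Their summed level ran from 992 to 1852, 1640 to 1884, 1502 to 2290 and 1744 to 2052 CPM in wild-type vehicle, wild-type pegIFN, mutant vehicle and mutant pegIFN libraries. Of 9 granulocyte and monocyte genes 4 were higher in the mutant under pegIFN, beside 4.16% of all genes. The summed level of the 9 was 139 to 541 CPM in wild-type and 776 to 1330 in mutant libraries. Under vehicle none of the 9 was called, where 8.48% of all genes were higher, but all 9 had positive values, as under pegIFN. Their summed levels overlapped there, at 246 to 847 CPM (median 354) in wild-type and 256 to 2046 CPM (median 816) in mutant libraries. Of these genes none was at 0. The part of these shifts in the ribosomal protein results was not tested.

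Other genes of the ribosome's supply chain were counted from lists that were written with earlier results of these data known. Fau, whose product is cut into a ribosomal protein and a ubiquitin-like protein, rose by 0.29 in wild-type and 0.26 in mutant cells. Of 24 genes for rRNA synthesis and ribosome assembly 22 rose in wild-type and 23 in mutant cells, beside 28.2% and 21.7% of all genes. None of the 24 fell, and their medians were 0.46 and 0.36. Among them Fbl, the rRNA methyltransferase, rose by 0.63 and 0.45, Ncl (nucleolin) by 0.54 and 0.44, and Polr1a, the largest subunit of RNA polymerase I, by 0.59 and 0.40. The same list gave 11 genes higher in the mutant under vehicle and none under pegIFN, beside 8.48% and 4.16% of all genes. With the mouse block 18 were higher under vehicle, beside 17.5% of all genes. Under pegIFN 3 were higher and 1 lower with the block, beside 13.3% and 11.3% of all genes.

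Of 19 further TOP mRNAs, mostly translation factors, 10 rose and 1 fell with pegIFN in each genotype. Over all genes tested 28.2% rose in wild-type and 21.7% in mutant cells. Npm1, a nucleolar chaperone, rose by 0.50 and 0.48. Eif4a2, a helicase of the initiation complex, fell by 0.56 and 0.29. Eef1a1, which brings aminoacyl-tRNA to the ribosome, had values of -0.03 and 0.01, and Tpt1 of -0.11 and -0.06, and neither was called. Of 14 genes of mTORC1 signalling 9 rose and 1 fell in wild-type cells, and 7 rose and 1 fell in mutant cells. Larp1 rose by 0.64 and 0.47, Eif4ebp1, a translational repressor that mTORC1 inactivates, by 0.51 and 0.37, and Mtor by 0.28 and 0.19. Eef2k, the kinase that inhibits elongation factor Eef2, fell by 0.59 and 0.42. Of 8 factors linked to ribosomal protein promoters Max, Myc and Yy1 rose in both genotypes, Myc by 0.35 and 0.28.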

How the data were processed

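Polyadenylated RNA of sorted LT-HSCs was sequenced as single 75-base reads, per the labels' protocols. The authors deposited 1 table of expected counts per gene, per the submitters' processing notes with RSEM 1.2.30 after trimming (cutadapt 1.11) and alignment (STAR 2.5.2a) to GRCm38; the annotation release is not given in the sources used here. RSEM divides reads shared between genes by estimation, and the expected counts were rounded before tests. Groups come from the labels, and replicates are different mice. Genes were kept by filterByExpr (minimum count 10; 15879 genes, 99.95% of counts). The tests used edgeR 4.0.16 in R 4.3.3: TMM factors, a model of 4 group means with no block term, quasi-likelihood tests with the robust option, Benjamini-Hochberg adjustment over all genes, and a threshold of 0.05. CPM use TMM-scaled library sizes. A member was called when its adjusted p was under the threshold, and a log2 fold change is pegIFN minus vehicle or mutant minus wild-type.

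Library names give the mouse, so mutant and wild-type libraries with the same replicate number come from 1 mouse within a treatment. Their deviations from the group means correlated at 0.12 to 0.42 (median 0.28) over 12 pairs, and 11 of the 12 wild-type libraries correlated best with their own partner among the 6 mutant libraries of that treatment. The part of possible processing sets, given the recurring S numbers of the library names, was not tested. Alternatives were other scalings, filters, DESeq2 1.42.0, limma 3.58.1 (voom), a mouse block, leaving out each library, and, chosen after seeing the data, leaving out doubted mice, with and without the block. Lengths and small nucleolar RNA genes come from GENCODE M21 (the median length of the best-supported coding transcripts). Promoter windows come from RefSeq, GRCm38.p6, with the window nearest the table's gene start. The code was tested on simulated data. Members and lists were chosen with earlier results of these data known; named are a fixed set of members and the 5 largest called changes each way in each comparison, and others were named after their values were seen. No p was computed over the list. Depth was 24.6 to 39.7 M counts a library. A few genes are not reported here by name, and counts include them.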

Additional observations from a re-analysis of the deposited data

Results flagged for a closer look

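For the 40 members named by rule, a library was compared with the other 5 of its group in 164 checks that also cover shares, and a library far from the rest of its group by Dixon's critical value is listed here. Chance gives about 1 in 20 groups. Of 16 such values, 8 came from mutant pegIFN replicate 3, mouse 40, which was the lowest of its group for Rpl3 (1384 CPM), Rpl10 (674), Rpl11 (635), Rpl13a (1235), Rpl27 (350), Rpl31 (287), Rps19 (586) and Rps25 (382). In mutant vehicle, replicate 4 was lowest for Rpl7a (668 CPM) and Rps14 (995). In wild-type vehicle, replicate 1 was highest for Rplp0 (2459 CPM) and Rps14 (1197), and replicate 6 for Rpl22 (431). Among the scarce copies, Rps4y2 was highest in mutant pegIFN replicate 2 (34.8 CPM), and Rpl39l in wild-type vehicle replicate 3 (0.428) and wild-type pegIFN replicate 5 (0.390).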

How the results depend on the processing

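No called value of a named member changed direction under the alternatives run, but calls were lost. Called named members numbered 21, 16, 4 and 5 (treatment in wild-type and mutant cells, genotype under vehicle and pegIFN). Of these, 10, 6, 2 and 5 lost the call under at least 1 other scaling, filter, way of counting or model, or with only the groups compared. Without some single library 5, 4, 2 and 5 lost it. With library totals 28 genes were called for treatment in wild-type (median 0.0362; 0.0517 with upper-quartile factors) and 19 in mutant cells. Of all genes 3326 rose and 5578 fell in wild-type with library totals, and 2291 and 4572 in mutant cells. Without single libraries the treatment counts ran from 35 to 47 and from 29 to 56, the genotype counts from 2 to 10 under vehicle and from 0 to 41 under pegIFN, and the interaction stayed at 0. The mouse as a replicate block, which is the pairing in the design, gave 35 and 39 genotype calls, and voom with the mouse as a random effect 34 and 39. The replicate number as a block gave 45 and 43 treatment calls, though numbers do not pair mice across treatments. Under pegIFN the genotype count was 3 with RLE factors, 0 with no filter, 2 with only the groups compared and 11 with DESeq2. Of all genes these gave 600 higher and 794 lower, 364 and 609, 780 and 824, and 886 and 1035. Without the 2 libraries apart on Xist the genotype counts were 2 and 0, and without mouse 40 the pegIFN count was 22; with the block they were 28 and 23 without those 2 mice, 55 without mouse 40, and 23 and 35 with library totals. Shares of counts with -ps rows added were 6.41, 6.61, 6.74 and 7.06% in wild-type vehicle, wild-type pegIFN, mutant vehicle and mutant pegIFN, and of protein-coding counts without mitochondrial genes 6.11, 6.22, 6.41 and 6.68%. The causes were not tested. Effects of about 0.1 on the log2 scale are near the limit at this depth and number of mice.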
